A study of Mus musculus with 18 samples.

Results

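The replication-dependent histone genes are the 61 genes whose symbol in the deposited count table begins with Hist1 to Hist4 followed by a histone class, pseudogenes left out, among 36757 genes in all. They comprise 6 genes of the linker histone H1 and 55 genes of the core histones, namely 16 of H2A, 16 of H2B, 10 of H3 and 13 of H4. They were followed through 18 RNA-seq libraries of C57BL/6 mice, 3 libraries in each of 6 groups, and the question was how linker and core histones compare between colorectal tissue and cultures grown from it. In the chronic colitis model, RNF138 fl/fl mice (labelled wild type) and RNF138-/- mice aged 6 to 8 weeks drank 2% dextran sulfate sodium (DSS) for 7 days and plain water for 14 days, a cycle repeated 2 times, and were killed 4 weeks after the last cycle. In the colitis-associated cancer (CAC) model, mice of both genotypes were first injected with the carcinogen azoxymethane (AOM, 10 mg/kg) and then went through cycles of the same kind. For the organoids, tumor-bearing fragments from CAC mice of both genotypes were digested and cultured in matrigel. All mice of these groups had received DSS, the CAC mice and the donors of the organoids also AOM, and libraries of untreated mice were not analysed here. The labels do not say whether separate libraries came from separate mice or cultures, so p-values measure the spread between these libraries.

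Core histones H2A, H2B, H3 and H4 form the octamer around which DNA is wrapped, and linker histone H1 binds where the DNA enters and leaves it. Replication-dependent histone genes are transcribed mainly in S phase, when new DNA has to be packaged, and their mRNAs typically end in a conserved stem-loop instead of a poly(A) tail. The stem-loop is bound by the protein Slbp, and the precursor is cut just behind it with the help of the U7 small nuclear RNA. Some of these genes also give polyadenylated transcripts that run past the stem-loop, mainly in cells that have stopped dividing, and a library made from poly(A) RNA sees chiefly those. The libraries were made with a TruSeq RNA kit, and neither poly(A) selection nor strandedness is stated in the sources used here.

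Of the 61 genes, 53 lie on chromosome 13 of GRCm38 (mm10), between 21715763 and 51203065, 5 on chromosome 3, 2 on chromosome 11 and 1 on chromosome 6. The histone stem-loop was searched by its consensus, with the loop left partly free, behind the stop codon of GENCODE M21 transcripts, and 42 of the 59 genes with an annotated coding sequence held it, between 21 and 54 bases after the stop. Hist1h2aj and Hist1h2al have no annotated coding sequence and could not be searched in this way. Among genes without a match, some models hold little or no sequence behind the stop. Examples are Hist1h4k (312 bases), Hist1h2bl and Hist1h2bn (381 each) and Hist1h3h and Hist1h3i (411 each), the shortest of their classes. For such genes the search could not find the element, and no match does not mean that they lack it. The 3 commonest forms are printed because they are the element that sets these mRNAs apart, with the stem in capitals and the loop in lower case. The first is shared by 22 genes, the next by 7 and the last by 6.
stem-loop of 22 genes, Hist1h1c and Hist3h2ba included: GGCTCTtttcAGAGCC
stem-loop of 7 genes: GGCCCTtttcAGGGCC
stem-loop of 6 genes: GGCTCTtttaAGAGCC

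The promoters of 54 genes were found in RefSeq (GRCm38.p6), each with 250 bases before and 50 after the start of the gene. On both strands together, CCAAT was found in 45 of the 54 (83.3%) and in 37.9% of 27025 promoters of all genes. It was in every H1, H2A, H2B and H3 promoter found and in 3 of 12 H4 promoters (25.0%). TATAAA was found in 32 (59.3%), against 14.2% of all promoters. AAACACA, known as the H1 box, was held by 5 of 6 linker genes and by 7.1% of all promoters. ATTTGCAT, the octamer motif, was held by 6 of 14 H2A and 4 of 14 H2B promoters and by 1.8% of all promoters. None of the 4 motifs contains another, a match describes letters in a window, and no binding was measured here. The 130 bases before the start of 3 linker genes and 1 H2B gene are printed because the results below turn on these genes, on the strand of the gene with motif matches in capitals.
Hist1h1c, chr13:23738677-23738806, plus strand: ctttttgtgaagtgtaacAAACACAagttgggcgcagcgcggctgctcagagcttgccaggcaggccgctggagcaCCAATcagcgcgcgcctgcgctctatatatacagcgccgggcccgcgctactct
Hist1h1e, chr13:23622559-23622688, minus strand: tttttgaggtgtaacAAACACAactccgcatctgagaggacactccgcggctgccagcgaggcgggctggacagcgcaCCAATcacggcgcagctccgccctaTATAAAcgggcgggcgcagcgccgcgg
Hist1h1d, chr13:23554902-23555031, plus strand: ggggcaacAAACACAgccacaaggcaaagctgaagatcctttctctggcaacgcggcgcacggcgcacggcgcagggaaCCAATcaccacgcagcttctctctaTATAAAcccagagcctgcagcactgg
Hist3h2ba, chr11:58948781-58948910, plus strand: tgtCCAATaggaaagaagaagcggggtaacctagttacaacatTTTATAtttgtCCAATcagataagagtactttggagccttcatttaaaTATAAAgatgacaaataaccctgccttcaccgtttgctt
In these windows the H1 box lies upstream of a CCAAT in each of the 3 linker genes, and the H2B gene has 2 CCAAT matches and no H1 box. The Hist1h1d stretch lies inside its GENCODE M21 model (23553262 to 23560686), so RefSeq and GENCODE place the start of this gene differently.

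The libraries held between 11514716 and 24390082 counts, and the 61 genes took between 0.0184% and 0.144% of a library. Levels below are given as CPM, counts relative to the library total after TMM scaling over all 18 libraries. Rnf138 checks the labels: the libraries labelled RNF138-/- had 18.1 to 19.5 CPM of it in colitis against 15.96 to 25.5 in wild type, 39.6 to 45.3 against at most 27.99 in CAC, and 42.6 to 49.9 against 37.4 to 55.2 in the organoids, so it was not called lower in any model. Its log2 fold change was -0.06 (SE 0.22, edgeR, adjusted p = 0.963) in colitis, 0.72 (SE 0.14, adjusted p = 0.0426) in CAC and -0.10 (SE 0.16, adjusted p = 0.668) in the organoids. The part of the gene that was removed is not given in the sources used here, and genotypes below are those of the labels. The Y-linked genes Ddx3y, Eif2s3y, Kdm5d and Uty had 0 counts in the 3 wild-type organoid libraries and summed to 240.8 to 280.4 CPM in the 3 organoid libraries labelled RNF138-/-, so sex of the donor and genotype cannot be told apart in the organoids. In CAC tissue the same sum was 192.0 to 223.4 CPM in wild type and 146.4 to 201.6 in RNF138-/-, so in wild type the organoids and the tissue also differ in Y-linked transcripts, and there sex and culture cannot be told apart. Of the epithelial markers the organoids held 5700 to 10860 CPM (10 genes) against 7182 to 14890 in tissue. Leukocyte markers (11 genes) were at 8.54 to 130 CPM in the organoids and 618.4 to 3056 in tissue, and stromal and smooth muscle markers (11 genes) reached 10890 to 54220 CPM, against 1309 to 14050 in tissue. The members of that list did not move together: Col1a1 was at 3197 to 16000 CPM in the organoids and 63.5 to 271.3 in tissue, while Des and Myh11, of smooth muscle, were at 1.40 to 6.02 and 2.47 to 57.7 CPM in the organoids and 5.10 to 4295 and 35.3 to 3847 in tissue. Those tissue ranges pool unlike groups. RNF138-/- organoids had 5.15 to 6.02 CPM of Des and 41.2 to 57.7 of Myh11. CAC tissue of RNF138-/- had 5.10 to 27.4 and 35.3 to 51.5, which overlap with them, and wild-type CAC tissue 416.5 to 2109 and 839.2 to 2246. In bulk samples, fewer cells of a type and less RNA per cell cannot be told apart.

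Most histone counts came from a pair of genes, with a larger share in the organoids than in tissue. Hist1h1c, which encodes linker histone H1.2, gave 103785 of the 157465 counts of the 61 genes (65.9%), and Hist1h2bc, an H2B gene, gave 35209 (22.4%). The other 59 genes shared 18471 counts (11.7%). These shares pool libraries that differ: Hist1h1c had 79.97% to 81.8% of the counts of the 61 genes in an organoid library and 36.2% to 55.4% in a tissue library, and Hist1h2bc 12.6% to 15.1% and 27.02% to 45.2%. In CAC wild-type library 3 and colitis library 1 of RNF138-/-, Hist1h2bc had more counts than Hist1h1c. Hist1h1c made up 93.7% to 99.2% of the linker counts in every library. Per length of the gene model, its mean over the 18 libraries was 231.8 CPM per kb, Hist1h2bc had 103.2, the H4 genes Hist1h4i and Hist1h4h had 10.3 and 6.74, and the H2B genes Hist3h2ba and Hist2h2be had 4.32 and 4.16. The highest H2A gene per length, Hist3h2a, had 1.91 CPM per kb, followed by Hist1h2ac and Hist1h2ad with 0.861 and 0.768. The highest H3 gene, Hist2h3c2, had 2.62 CPM per kb, followed by Hist1h3d and Hist1h3g with 1.54 and 0.945. At the other end, 10 of 61 genes never had more than 3 counts in a library, and 22 never reached 10 counts. Of the 61 genes, 30 entered no test because their counts were too low, and these are not detectable at this depth as differing or as equal.

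**Figure D1:**
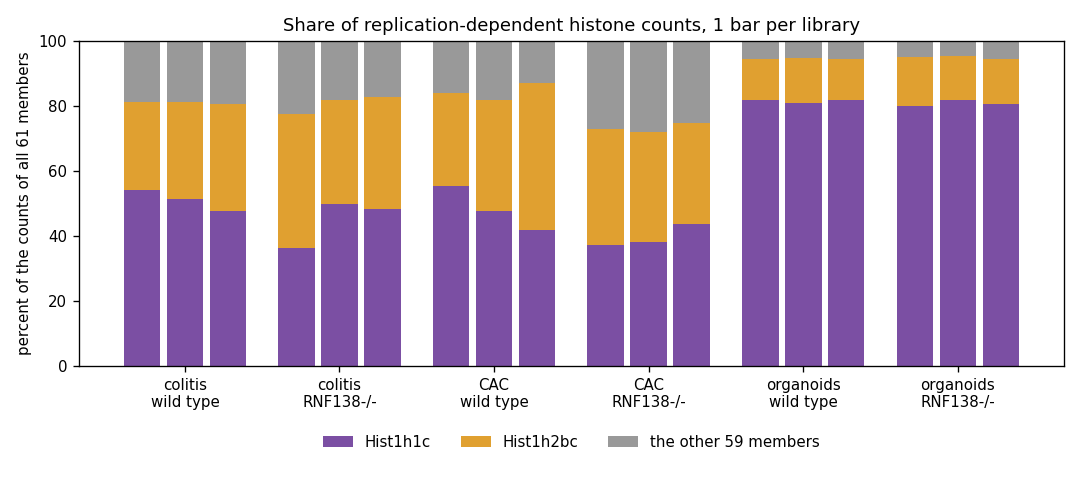
Each bar is 1 library, and its height is split by the percent of the counts of all 61 genes that came from Hist1h1c, Hist1h2bc and the other 59 genes. Hist1h1c and Hist1h2bc together hold 71.9% to 87.1% in the 12 tissue libraries and 94.3% to 95.3% in the 6 organoid libraries.

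Without division by length, the CPM of a gene went with how far its annotated model runs past the stem-loop. Of the 42 genes with a stem-loop, 22 have at least 100 annotated bases behind it, and their mean CPM over the libraries had a median of 1.42. The other 20 end within 100 bases, with a median of 0.276 CPM and a highest value of 3.17 for Hist1h4h. A mean of at least 1 CPM was reached by 11 of the 22 and by 1 of the 20. Hist1h1c (chr13:23738808-23740367, plus strand, 1 exon of 1560 bases) has its stem-loop 24 bases after the stop and runs 840 bases beyond it, with a poly(A) signal in that stretch. The models of Hist1h2bc (chr13:23684199-23692908, spliced to 1156 bases) and of Hist2h2be (chr3:96221119-96223738, 1 exon of 2620 bases) held no match behind the stop. Gene models are themselves built in part from sequenced polyadenylated transcripts. The bases behind the loop lengthen the model, so CPM, here not divided by length, can rise with them. Per kb the contrast was smaller: Hist1h4h of the 20 had 6.74, above every gene of the 22 but Hist1h1c and Hist1h4i. Hist1h1d, with 4884 bases behind the loop, had 3.92 CPM but 0.527 CPM per kb. These values are descriptions.

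**Figure D2:**
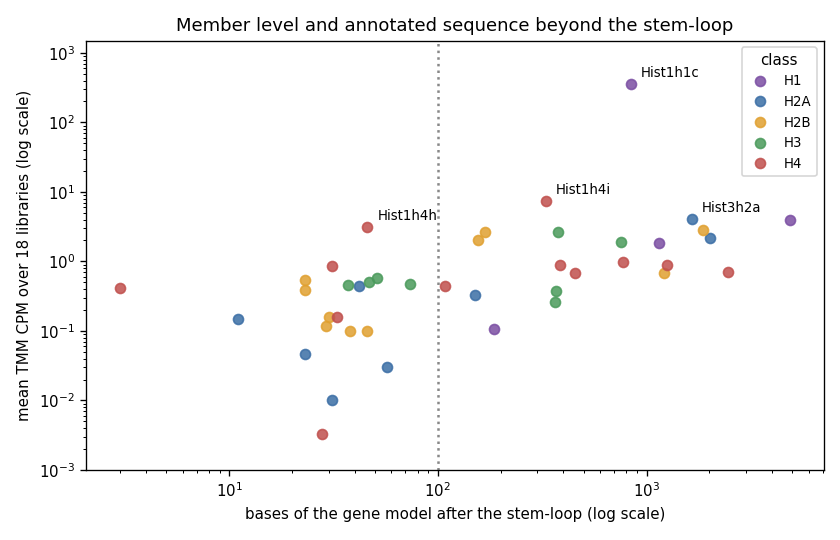
Each point is 1 of the 42 genes with a stem-loop, coloured by class; the x axis (log scale) gives the bases of its gene model after the stem-loop and the y axis (log scale) its mean CPM over 18 libraries. The dotted line stands at 100 bases. Without division by length, 11 of the 22 genes to its right but 1 of the 20 to its left have a mean of at least 1 CPM.

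Near-identical copies limit what single genes can tell. Of the 61 genes, 30 share most of their 50-base windows with another gene, so reads may have been split or lost there, and 4 share none. Hist1h1c shares 8.54% and Hist1h2bc 30.6%. Hist1h1e overlaps the H2B gene Hist1h2be on the same strand, and Hist3h2a overlaps Trim17 on the same strand. Every H2A gene, Hist3h2a included, overlaps another annotated gene on the other strand, and outside H2A only Hist1h4b does. Strandedness is not stated, so reads of the whole H2A class may have been lost there, which was not tested.

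Linker histone transcripts were several times more abundant in the organoids than in CAC tissue of the same genotype, while the summed core histones overlapped with their tissue level. In wild type the summed H1 genes had 1345, 955.0 and 711.9 CPM in the 3 organoid libraries and 242.5, 126.3 and 188.0 in the 3 CAC libraries. Every organoid library lay above every CAC library, and the ratio of the means was 5.41. In RNF138-/- the organoids had 637.3, 503.1 and 510.6 CPM and the CAC libraries 67.9, 57.4 and 90.2, again without overlap, with a ratio of the means of 7.66. The summed core genes had 280.6, 217.2 and 150.9 CPM in wild-type organoids and 179.4, 130.2 and 249.6 in wild-type CAC, which overlap, and 153.1, 106.1 and 117.1 against 104.0, 88.5 and 111.2 CPM in RNF138-/-, which overlap as well. The ratios of the means were 1.16 and 1.24. Much of each class sum is 1 gene. Without Hist1h1c the linker ratio was 1.89 in wild type, with overlap, and 1.80 in RNF138-/-, without overlap. Without Hist1h2bc the core ratio was 1.09 in wild type, with overlap, and 0.669 in RNF138-/-, where every organoid library was below every CAC library. Among core classes in RNF138-/-, the H2A sum was lower (0.561) and the H2B sum higher (1.38) in organoids, each without overlap.

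The linker sum divided by the core sum separated cultures from tissue. It was 4.79, 4.40 and 4.72 in wild-type organoids and 4.16, 4.74 and 4.36 in RNF138-/- organoids. In the 12 tissue libraries it was between 0.6002, in a colitis library labelled RNF138-/-, and 1.35, in a wild-type CAC library. The group means were 1.13 ± 0.137 (SD, n = 3) in colitis wild type, 0.880 ± 0.244 in colitis RNF138-/-, 1.02 ± 0.303 in CAC wild type, 0.704 ± 0.0924 in CAC RNF138-/-, 4.64 ± 0.211 in wild-type organoids and 4.42 ± 0.295 in RNF138-/- organoids. The ratio takes in genes of different length, so its size is not a ratio of molecules, and its difference between libraries is what is described. Without Hist1h1c and Hist1h2bc, the ratio was 0.155 to 0.224 in the organoid libraries and 0.0509 to 0.146 in the tissue libraries.

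**Figure D3:**
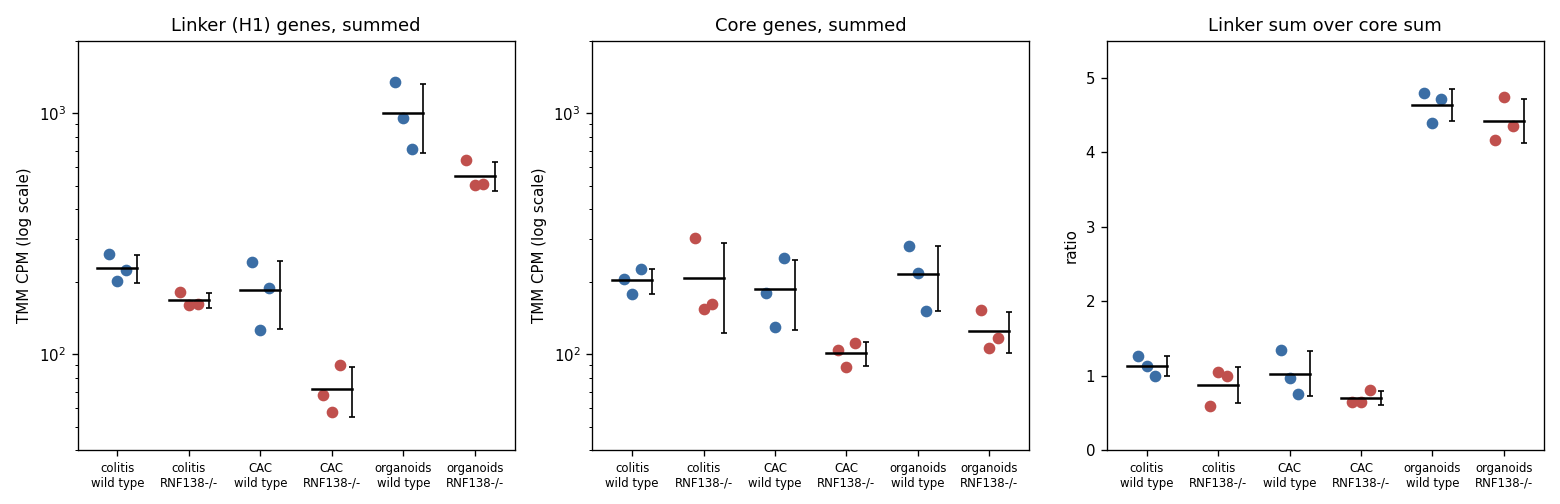
Points are single libraries of the 6 groups, horizontal lines are group means and the bars beside them the SD (n = 3). The left and middle plots give the summed CPM of the 6 linker and the 55 core genes on a log axis, the right plot their ratio, which is 4.16 to 4.79 in organoids and 0.6002 to 1.35 in tissue.

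Of the 61 genes, 26 had enough counts to be tested between organoids and CAC. A gene was called at an adjusted p under 0.05 (edgeR quasi-likelihood test, Benjamini-Hochberg over all genes tested) and a fold change of at least 2. In wild type 6 were called higher in organoids, where 17.7% of all 18617 genes tested were, and 2 lower, where 26.3% of all genes were. In RNF138-/- 6 were called higher (18.5% of all genes) and 5 lower (26.7% of all genes). The median log2 fold change of the 26 was 0.46 in wild type and 0.37 in RNF138-/-, against -0.12 and -0.20 over all genes tested. Both comparisons use their own CAC and organoid libraries.

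Among linker genes, Hist1h1c rose in both genotypes. It had 1329, 946.3 and 704.4 CPM in the 3 wild-type organoid libraries against 233.8, 122.1 and 183.4 in CAC. In RNF138-/- it had 632.1, 498.3 and 504.8 CPM in organoids and 63.6, 55.4 and 87.6 in CAC. No organoid library came near the tissue range. The log2 fold change was 2.46 (SE 0.29, adjusted p = 3.76e-05) in wild type, a 5.51-fold difference, and 2.99 (SE 0.30, adjusted p = 1.01e-05) in RNF138-/-, a 7.96-fold difference. Both held under every setting and with each library left out, between 2.22 and 2.68 and between 2.37 and 3.20, and the 2 effects did not pass the test of their difference (0.53, SE 0.39, adjusted p = 0.340).

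Hist1h1e, which encodes H1.4, rose from a low level, with 5.32, 2.51 and 2.34 CPM in wild-type organoids against 1.5, 0.480 and 1.29 in CAC, and 2.58, 1.79 and 2.08 against 1.38, 0.283 and 0.762 in RNF138-/-. The groups did not overlap in either genotype, and its log2 fold changes were 1.66 (SE 0.57, adjusted p = 0.0233) and 1.43 (SE 0.57, adjusted p = 0.0446). Its call in RNF138-/- was lost without TMM scaling (0.82, adjusted p = 0.188) and without any of 5 single libraries, and in wild type without CAC library 2 or organoid library 1. Hist1h1d, which encodes H1.3, had log2 fold changes of 0.67 (SE 0.41, adjusted p = 0.172) and 0.41 (SE 0.43, adjusted p = 0.413), with overlapping groups, and was not called. The other linker genes were too low to test: Hist1h1b (H1.5) had at most 23 counts in a library, Hist1h1a (H1.1) at most 11, and the testis gene Hist1h1t at most 5.

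Core genes went both ways within a class. Among H2B genes, Hist2h2be fell in both genotypes, with 5.61, 6.35 and 4.01 CPM in wild-type organoids and 12.6, 11.5 and 13.8 in CAC, and with 3.97, 3.17 and 3.49 against 9.19, 12.7 and 14.0 CPM in RNF138-/-. Every organoid library was below every CAC library. The log2 fold changes were -1.25 (SE 0.23, adjusted p = 0.000754) and -1.75 (SE 0.24, adjusted p = 8.02e-05), and both were called under every setting. Hist1h2bc, the H2B gene with most counts, had 206.3, 164.9 and 108.9 CPM in wild-type organoids and 119.8, 87.1 and 197.6 in CAC, groups that overlap, and its log2 fold change of 0.24 (SE 0.30, adjusted p = 0.513) was not called. In RNF138-/- it had 119.3, 82.3 and 87.7 against 61.7, 49.5 and 62.5 CPM, without overlap, and a log2 fold change of 0.74 (SE 0.31, adjusted p = 0.0513) that missed the threshold. Hist1h2bb (2.98, SE 0.71, adjusted p = 0.00351) and Hist1h2bg (1.41, SE 0.41, adjusted p = 0.0103) rose in wild type. Hist1h2bb had 18, 17 and 18 counts in wild-type organoids and at most 7 in a CAC library. The filter on low counts thus let it in only through the organoids, where it was high, which limits its call. Hist1h2bh fell in RNF138-/- (-1.66, SE 0.56, adjusted p = 0.0230).

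Hist3h2ba was the member whose organoid effect was called as different between genotypes in the fit described here, while Hist1h4i was called as well with the replicate block, by DESeq2 and without TMM, and Hist4h4 without TMM. It had 7.90, 8.86 and 5.55 CPM in wild-type organoids against 2.44, 1.87 and 0.463 in CAC, and 2.44, 2.32 and 2.45 against 2.02, 2.55 and 4.17 in RNF138-/-. Only in wild type did the organoids lie above the tissue. Its log2 fold change in wild type was 2.20 (SE 0.46, adjusted p = 0.00149), and the effect in RNF138-/- minus that in wild type was -2.46 (SE 0.63, adjusted p = 0.0169), called under every setting and with each library left out. It was 1 of 26 members called in this test, all lower, where 7.83% of all genes were called lower and 11.8% higher. Hist3h2ba lies on chromosome 11 from 58948920 to 58949533, outside the large clusters, shares 22.1% of its windows and carries the commonest stem-loop.

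In H2A, Hist3h2a fell in RNF138-/-, with 2.02, 1.00 and 2.01 CPM in organoids against 4.46, 6.11 and 6.41 in CAC (log2 fold change -1.76, SE 0.39, adjusted p = 0.00207). In H3, Hist1h3a rose in both genotypes (1.77, SE 0.58, adjusted p = 0.0192, and 2.23, SE 0.51, adjusted p = 0.00252) and Hist1h3b in RNF138-/- (2.16, SE 0.73, adjusted p = 0.0217). These levels were low, with means of 0.596 and 1.03 CPM of Hist1h3a in wild-type and RNF138-/- organoids. In H4, Hist1h4k fell in both genotypes (-2.22, SE 0.53, adjusted p = 0.00349, and -1.28, SE 0.51, adjusted p = 0.0464), and it shares 71.5% of its windows. Its call in RNF138-/- was also lost with RLE scaling, without the filter, with the replicate block and by DESeq2. The remaining calls, all in RNF138-/-, were Hist1h4a (3.13, SE 0.99, adjusted p = 0.0159) and Hist1h4n (1.14, SE 0.47, adjusted p = 0.0488), which rose, and Hist4h4 (-2.35, SE 0.60, adjusted p = 0.00496), which fell, and all 3 were under 1 CPM on average. Hist1h3a had at most 6 counts in a CAC library and Hist1h4a at most 7, so the filter on low counts let them in only through the organoids, where they were high. Hist1h4k had at most 7 counts in an organoid library and entered only through CAC. These calls are limited by that. Several of these low genes depended on single libraries. In wild type the call of Hist1h2bg was lost without organoid library 1 and that of Hist1h3a without CAC library 2 or organoid library 2. In RNF138-/- Hist1h3b was lost without CAC library 2 or 3 and without TMM, Hist1h4a without CAC library 2 or organoid library 1, Hist1h2bh without CAC library 1 or organoid library 2 or 3, Hist1h4k without CAC library 1 or 3 or organoid library 1 or 3, and Hist1h4n without any of the 6 libraries. The call of Hist1h4n was also lost without TMM, without the filter, with the replicate block, by DESeq2 and in the fit of all 18 libraries.

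**Figure D4:**
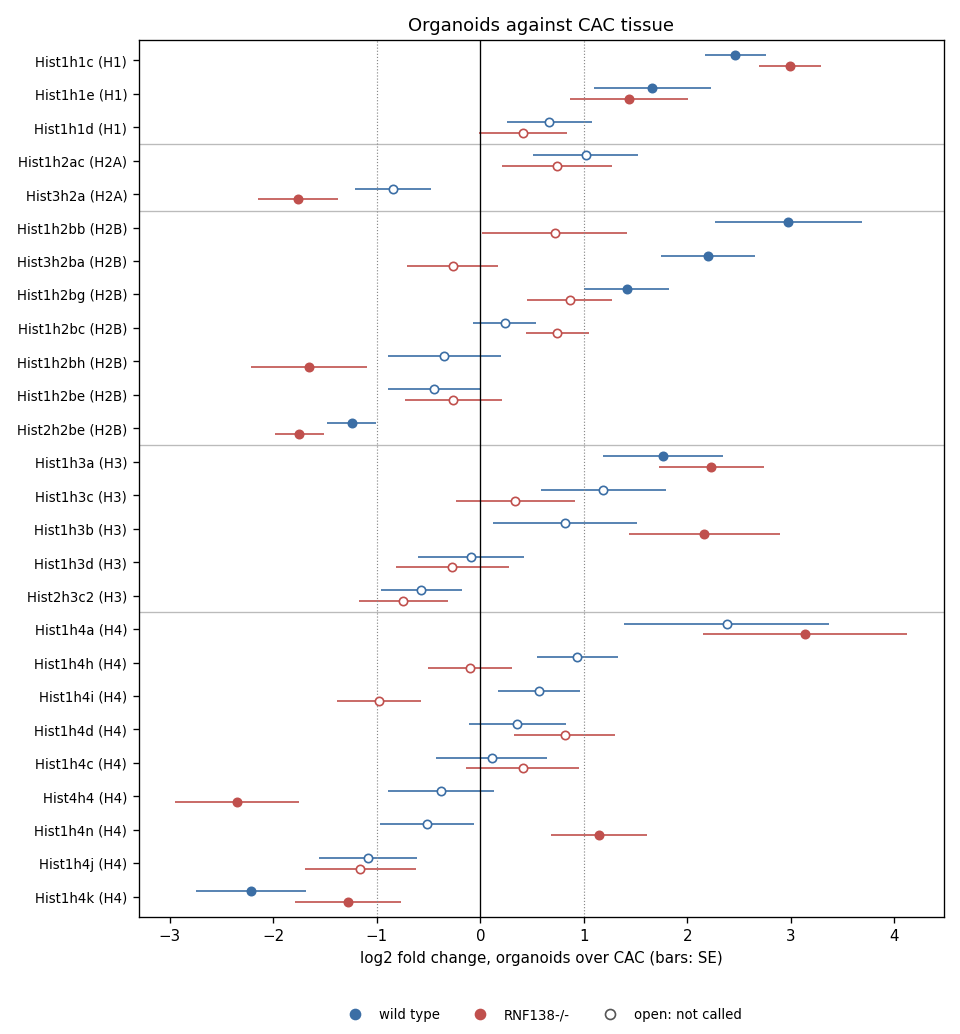
For each of the 26 tested genes, ordered by class, points give the log2 fold change of organoids over CAC in wild type (blue) and RNF138-/- (red) with its SE; filled points were called and dotted lines mark a 2-fold difference. Hist1h1c stands at 2.46 and 2.99, and Hist2h2be at -1.25 and -1.75.

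With TMM the median log2 fold change of all genes tested was -0.12 in wild type and -0.20 in RNF138-/-. With library totals alone the median log2 fold change of all genes tested was -0.26 in wild type and -0.83 in RNF138-/-. The core sum in RNF138-/-, 0.31 on the log2 scale with TMM, was -0.30 with library totals, and Hist1h1c was 2.32 and 2.37.

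Of 24 genes of S phase and DNA replication, 2 were called higher and 4 lower in wild-type organoids, and 0 higher and 14 lower in RNF138-/- organoids, to be read against 17.7% and 26.3% of all genes in wild type and 18.5% and 26.7% in RNF138-/-. In RNF138-/- 21 of the 24 had a lower and 2 a higher value with an unadjusted p under 0.05, as had 38.1% and 29.5% of all genes, and DESeq2 called 0 higher and 13 lower. Their median log2 fold changes were -0.48 and -1.12. Pcna, the sliding clamp of the replication fork, rose in wild type (1.23, SE 0.12, adjusted p = 1.11e-05) and had 0.41 (SE 0.12, adjusted p = 0.0100) in RNF138-/-, while Tk1, thymidine kinase, fell in both (-1.34, SE 0.20, adjusted p = 0.000170, and -1.33, SE 0.20, adjusted p = 0.000154). Mki67, the proliferation marker, chosen after its values were seen, had 15.8 to 51.7 CPM in organoids and 150.4 to 227.3 in CAC (-2.62, SE 0.31, adjusted p = 3.37e-05, and -2.05, SE 0.30, adjusted p = 0.000136).

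The counts of the next 3 lists are to be read against the same shares of all genes, 17.7% higher and 26.3% lower in wild type and 18.5% and 26.7% in RNF138-/-. Of 24 genes that transcribe or process histone mRNA, 2 were called higher and 3 lower in wild type and 1 higher and 5 lower in RNF138-/-. Slbp, which binds the stem-loop, did not pass in either (-0.15, SE 0.13, adjusted p = 0.318, and -0.18, SE 0.13, adjusted p = 0.237), nor did Npat, the coactivator of histone gene transcription (0.35, SE 0.21, adjusted p = 0.159, and -0.05, SE 0.21, adjusted p = 0.843). Those called in both were Ctif, which rose and which serves translation of these mRNAs, and Casp8ap2, Ccne2 and Gon4l, which fell. In wild type each of these 4 calls was lost without 1 or more single libraries, that of Ccne2 also without the filter and in the fit of all 18 libraries, and that of Ctif was lost without TMM in both genotypes. Of 11 histone variants listed as replication-independent, 4 were called higher and 1 lower in wild type, and 0 higher and 2 lower in RNF138-/-. H3f3b, which encodes the replacement histone H3.3, rose in wild type (1.596, SE 0.19, adjusted p = 3.87e-05). H1f0, the linker histone of resting cells, had 430.7 to 567.5 CPM in wild-type organoids against 254.2 to 269.4 in CAC, and its log2 fold changes of 0.94 (SE 0.14, adjusted p = 0.000175) and 0.86 (SE 0.14, adjusted p = 0.000294) were under the 2-fold threshold. Without wild-type organoid library 3 the former was 1.05 and called, and without TMM the latter was 0.23 (adjusted p = 0.202). H1fx, another linker variant, rose in wild type (2.01, SE 0.40, adjusted p = 0.00110) and had 0.09 (SE 0.38, adjusted p = 0.841) in RNF138-/-, a value that turned negative without TMM. H2afz, which encodes H2A.Z, had 0.77 (SE 0.14, adjusted p = 0.000604) and -0.10 (SE 0.14, adjusted p = 0.525). Of 19 histone chaperones, 3 were called higher and 2 lower in wild type and 0 higher and 1 lower in RNF138-/-, and Asf1b, which hands histones to the replication fork, fell in both (-1.94, SE 0.29, adjusted p = 0.000178, and -2.06, SE 0.29, adjusted p = 9.94e-05).

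Some other abundant RNAs normally carry no poly(A) tail, among them Rn7sk, small nuclear and small nucleolar RNAs. A list of 24 RNAs without a poly(A) tail, 15 of them in the table, summed to 17.4 to 27.4 CPM in the organoids and 3.08 to 15.8 in tissue. Of 3 tested, 1 was called higher and 1 lower in wild-type organoids and 1 higher and 0 lower in RNF138-/- organoids, and DESeq2, which tested 15, called 1 higher and 2 lower in each genotype. The shares of all genes given above apply here too. Rn7sk made up 16.4 to 25.9 in the organoids and 0.228 to 11.6 in tissue. Annotated small nucleolar RNAs had 13.9 to 23.4 CPM in the organoids, 23.5 to 46.8 in colitis and 69.5 to 91.8 in CAC, and annotated small nuclear RNAs had 7.81 to 18.8 CPM in the organoids and 13.8 to 34.5 in tissue, which overlap. The part of RNA selection, of stromal and leukocyte content and of growth rate in the difference of the linker genes was not tested.

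Between CAC and colitis tissue, the histone genes called here were lower in CAC, while Hist3h2ba was called higher in both genotypes when all 18 libraries were fitted together and in RNF138-/- also without the filter, by DESeq2 and without TMM, and Hist1h2bh was called higher in RNF138-/- without TMM. In wild type 27 members were tested, 0 were called higher (8.41% of 18843 genes tested were) and 2 lower, where 3.04% of all genes were lower. At an unadjusted p under 0.05, 1 was higher (17.9% of all genes) and 7 lower (13% of all genes), and DESeq2 called 0 higher. Hist2h4 had 0.500, 0.288 and 0.647 CPM in CAC against 2.79, 2.04 and 1.95 in colitis (log2 fold change -2.26, SE 0.40, adjusted p = 0.00384). Hist1h4k had 1.12, 0.960 and 0.833 against 3.14, 2.50 and 2.13 CPM (-1.39, SE 0.35, adjusted p = 0.0207), a call that was lost without any of 4 single libraries. Both H4 genes were without overlap between the groups. Hist1h1c did not pass in wild type (-0.27, SE 0.24, adjusted p = 0.472).

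In RNF138-/- 0 of 27 members were called higher in CAC (17.1% of all genes) and 11 lower (19.6% of all genes), and at an unadjusted p under 0.05 there were 2 higher (29.7% of all genes) and 12 lower (28.5% of all genes), with 1 called higher by DESeq2. The 11 comprised 5 of 10 tested H4 genes, 3 of 7 H2B genes, 2 of 4 H3 genes, 1 of 3 H1 genes and 0 of 3 H2A genes. Hist1h1c had 63.6, 55.4 and 87.6 CPM in CAC and 175.7, 156.3 and 155.9 in colitis (-1.24, SE 0.24, adjusted p = 0.00167). Hist1h2bc had 61.7, 49.5 and 62.5 against 200.2, 101.0 and 111.4 CPM (-1.25, SE 0.32, adjusted p = 0.00728). Neither gene overlapped between the groups, and both lost the 2-fold call with library totals in place of TMM, at -0.93 and -0.92. Hist2h4 (-2.0, SE 0.39, adjusted p = 0.00155), Hist1h2bj (-1.74, SE 0.53, adjusted p = 0.0167), Hist1h4h (-1.72, SE 0.47, adjusted p = 0.0101), Hist1h2be (-1.63, SE 0.52, adjusted p = 0.0205) and Hist1h4c (-1.51, SE 0.47, adjusted p = 0.0184) fell as well. The rest were Hist2h3c2, Hist1h3d, Hist1h4j and Hist1h4k. Colitis library 1 of RNF138-/- was the highest in core genes, with 303.2 CPM against 153.7 and 161.9 in the others, and without it 7 members were called, 6 of them among the 11 and Hist3h2ba higher. Without CAC library 2, 8 were called, 6 of them among the 11. Leaving out CAC library 3 lost Hist1h2be, Hist1h2bj, Hist1h3d and Hist1h4c, and leaving out colitis library 3 lost Hist1h4c.

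Of 24 S phase genes, 5 were called higher in this comparison (17.1% of all genes were) and 0 lower (19.6%), and DESeq2 gave the same counts. At an unadjusted p under 0.05, 12 were higher (29.7% of all genes) and 0 lower (28.5%). Among those called were Mcm4 and Mcm7 of the replicative helicase (1.29, SE 0.21, adjusted p = 0.000616, and 1.17, SE 0.20, adjusted p = 0.000686). Npat rose too (1.25, SE 0.32, adjusted p = 0.00732), with 29.3 to 35.6 CPM in CAC and 8.57 to 16.2 in colitis, a call that was lost without colitis library 1 (0.99). In the same libraries the 11 leukocyte markers summed to 618.4 to 942.0 CPM in CAC and 1966 to 2962 in colitis, with 1 called higher and 6 lower. The 11 stromal and smooth muscle markers summed to 1309 to 2415 against 5544 to 14050 CPM, with 0 called higher and 5 lower, and the 10 epithelial markers to 7182 to 8598 against 8983 to 12770, with 0 higher and 3 lower. The part of cell content in these differences was not tested. The effect in RNF138-/- minus that in wild type gave 0 called members higher (1.1% of all genes) and 0 lower (7.23% of all genes) of 27, with 0 (10.2% of all genes) and 2 (16.9% of all genes) at an unadjusted p under 0.05 and 0 and 1 called by DESeq2. Hist1h1c had a difference of -0.97 (SE 0.34, adjusted p = 0.0986) and Hist1h2bc one of -1.34 (SE 0.45, adjusted p = 0.0854), and both passed the thresholds when CAC wild-type library 2 was left out.

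Between genotypes, members were lower in the libraries labelled RNF138-/- wherever one was called. In colitis 0 of 26 tested members were called higher (0.018% of 16623 genes tested) and 0 lower (0.0722%), with 0 (6.08% of all genes) and 2 (4.33% of all genes) at an unadjusted p under 0.05 and 0 called by DESeq2. With the replicate number as a block, the counts were 0 and 0 as well. Hist1h1c had 175.7, 156.3 and 155.9 CPM in RNF138-/- against 252.3, 193.5 and 214.1 in wild type, without overlap, and a log2 fold change of -0.41 (SE 0.17, adjusted p = 0.467).

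In CAC 20 members were tested, 0 were called higher (0.546% of 17752 genes tested) and 1 lower (4.83%), and at an unadjusted p under 0.05 there were 0 higher (14.1% of all genes) and 7 lower (19.7% of all genes). The called gene was Hist1h1c, with 63.6, 55.4 and 87.6 CPM in RNF138-/- against 233.8, 122.1 and 183.4 in wild type (-1.43, SE 0.29, adjusted p = 0.0432). It did not overlap between the groups, but the call was lost without TMM (-1.15, adjusted p = 0.0639) and when CAC wild-type library 1 or any of the 3 RNF138-/- libraries was left out, with adjusted p of up to 0.164. Hist1h2bc (-1.28, SE 0.33, adjusted p = 0.0619) missed the threshold, and DESeq2 called it (-1.26, adjusted p = 0.00702). The summed leukocyte markers were at 618.4 to 942.0 CPM in RNF138-/- and 1760 to 2836 in wild type, with 0 of 11 called higher and 5 lower. The stromal and smooth muscle markers were at 1309 to 2415 against 3965 to 8259 CPM, with 0 of 11 higher and 4 lower, and the epithelial markers at 7182 to 8598 against 8716 to 14890, with 0 of 10 higher and 2 lower. Their part in the difference was not tested. Of 24 S phase genes 0 were called in CAC by edgeR in either direction, and 1 was called higher by DESeq2, while 19 had a higher and 0 a lower value with an unadjusted p under 0.05, where 14.1% and 19.7% of all genes had.

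In the organoids 20 members were tested, 0 were called higher (7.94% of 15294 genes tested) and 7 lower (7.04%), and at an unadjusted p under 0.05 there were 0 higher (22.7% of all genes) and 13 lower (24.7% of all genes). The replicate block called 0 higher and 5 lower and DESeq2 0 and 6, and both lost Hist1h2bb and Hist1h2be. One fit of all 18 libraries called 0 higher and 5 lower, lost these genes and Hist3h2a, and gained Hist4h4. Hist3h2ba had 2.44, 2.32 and 2.45 CPM in RNF138-/- against 7.90, 8.86 and 5.55 in wild type (-1.68, SE 0.25, adjusted p = 0.00332). Hist1h1d had 1.95, 1.90 and 3.05 against 10.3, 5.80 and 4.48 CPM (-1.63, SE 0.37, adjusted p = 0.0118). Hist1h4i had 4.67, 2.11 and 2.68 against 14.7, 8.39 and 5.21 CPM (-1.64, SE 0.43, adjusted p = 0.0214). In each of these genes every RNF138-/- library lay below every wild-type library. Hist1h4h (-1.42, SE 0.30, adjusted p = 0.00993), Hist1h2bb (-1.70, SE 0.56, adjusted p = 0.0446), Hist3h2a (-1.20, SE 0.37, adjusted p = 0.0376) and Hist1h2be (-1.10, SE 0.36, adjusted p = 0.0448) fell too. Hist1h2bb had 11, 3 and 3 counts in RNF138-/- and 18, 17 and 18 in wild type, through which it entered this test. Hist1h1c (-0.91, SE 0.23, adjusted p = 0.0185) and Hist1h2bc (-0.78, SE 0.24, adjusted p = 0.0352) passed the adjusted p and not the 2-fold threshold. Without RNF138-/- library 2 only Hist3h2ba and Hist1h4h were called, without RNF138-/- library 3 only 3 members and without wild-type library 2 only 4, while Hist1h2be and Hist3h2a were lost without library 1 of either genotype and Hist1h2bb without wild-type library 3.

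Both class sums were lower in RNF138-/- organoids. The linker sum in RNF138-/- organoids was 0.548 of that in wild type, without overlap, and the core sum 0.580, with overlap, and the ratio of linker to core overlapped between the genotypes. Among histone variants 2 of 11 were called lower, where 7.04% of all genes were, H1fx (-1.12, SE 0.27, adjusted p = 0.0156) and H2afj (-1.09, SE 0.14, adjusted p = 0.00211), and 0 higher. The call of H1fx was lost without wild-type library 2, without RNF138-/- library 1 or 3 and in the fit of all 18 libraries (adjusted p of up to 0.117), and that of H2afj without RNF138-/- library 2 (-0.99). Of 23 S phase genes tested, 0 were called higher (7.94% of all genes) and 1 lower (7.04%), Rfc3 (-1.48, SE 0.18, adjusted p = 0.00181), a subunit of the clamp loader. DESeq2, which tested 24, called 1 higher and 1 lower. The stromal and smooth muscle markers summed to 44200 to 54220 CPM in RNF138-/- organoids and 10890 to 26260 in wild type, with 7 of 11 called higher and 0 lower. Leukocyte markers summed to 86.85 to 130 against 8.54 to 16.8 CPM, with 2 of 4 tested called higher and 1 lower. Epithelial markers summed to 5700 to 8354 against 9984 to 10860 CPM, with 0 of 10 higher and 2 lower. Of all genes 7.94% were called higher and 7.04% lower. The part of these markers in the differences was not tested.

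**Figure D5:**
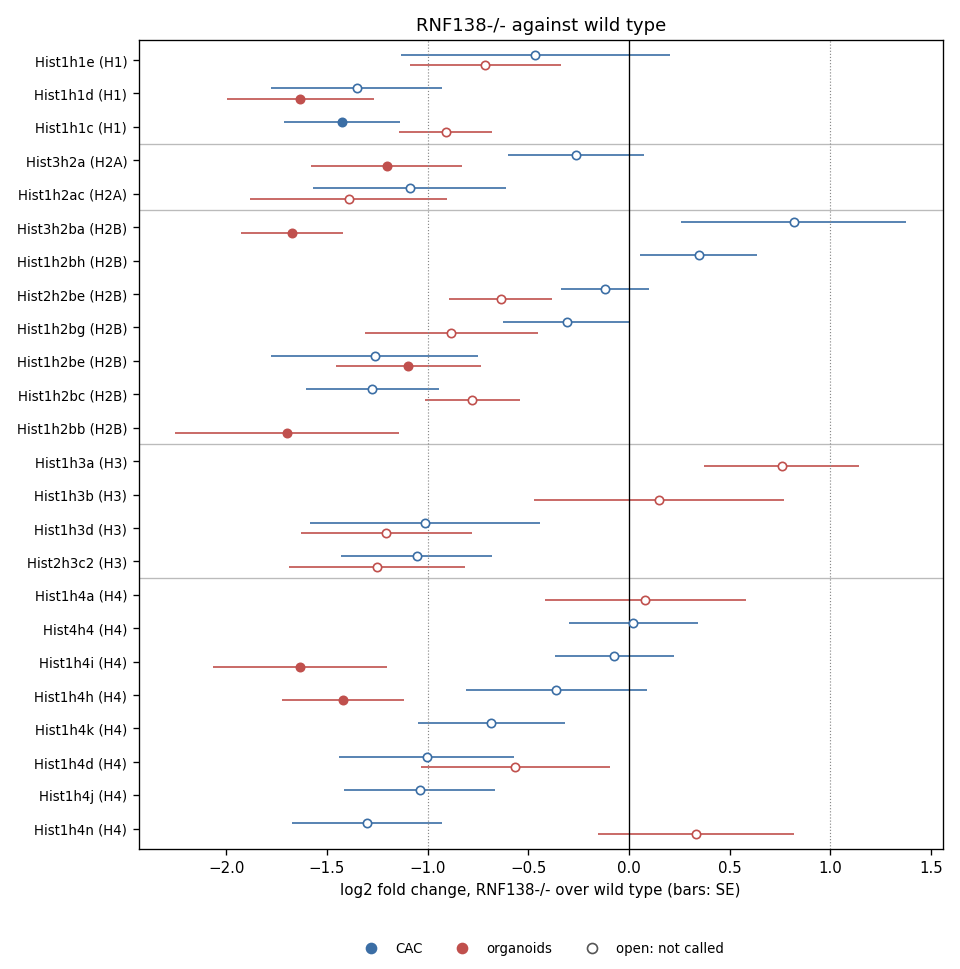
Points give the log2 fold change of libraries labelled RNF138-/- over wild type with its SE, in CAC (blue) and organoids (red), for each gene tested in either; filled points were called and dotted lines mark a 2-fold difference. The called genes, 1 in CAC and 7 in the organoids, all lie left of -1.

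For single genes the exact permutation test (two-sided) cannot go below p = 0.1 with 3 libraries against 3. Hist1h1c reached that smallest value in both organoid comparisons.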

How the data were processed

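RNA-seq of colorectal tissue and of organoids from 18 samples was used. The authors deposited whole-number read counts per gene without normalization. The submitters' processing notes name STAR 2.6.1d, HTSeq 0.11.2, DESeq2 and mm10, and the paper names Cufflinks, so which step gave the counts is not settled here. A deposited table of the authors' own log2 fold changes and p-values was not used. All 18 columns of counts were mapped by their names.

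Counts were analysed with edgeR 4.0.16 in R 4.3.3 (TMM, filterByExpr by group, glmQLFit, glmQLFTest, Benjamini-Hochberg over all genes tested). CAC and organoids were fitted together (12 libraries), colitis and CAC together, and genotypes within each model (6 libraries). Calls took an adjusted p under 0.05 together with a difference of 2-fold or more. Members, gene lists and tests were chosen with earlier results of these data known. Named are all H1 genes, the 3 highest per kb of each core class, up to 5 called members per direction and comparison whose groups do not overlap and that reach 1 CPM, the pathway genes Slbp, Npat, Pcna and H2afz, called list genes and Rnf138, while calls outside this rule (Hist1h3a in wild type, Hist1h4a, Hist1h4n, Hist4h4) and Mki67, H1f0, Col1a1, Des and Myh11 were named after their values were seen. DESeq2 1.42.0, RLE scaling, no TMM, no filter, adjusted p alone, a replicate block, 1 fit of all libraries and leaving out each library were the alternatives. Deviations across genes of same-numbered colitis libraries had r = 0.276, 0.123 and 0.565. Wild-type library 1 with RNF138-/- library 2 had 0.299, and 2 with 1 had 0.275. Differently numbered pairs with library 3 had -0.44 to -0.296. The numbers alone therefore do not mark pairs, and the labels give no reason for these values. In CAC and organoids not every same-numbered pair exceeded 0.1. Coordinates and windows come from GENCODE M21, promoters from RefSeq. The fits were tested on simulated data. Total counts per library, 11514716 to 24390082, limit what low genes can show. One marker list is not reported here.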

Additional observations from a re-analysis of the deposited data

Results flagged for a closer look

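The organoid effect on Hist3h2ba, an H2B gene of the small cluster on chromosome 11, differed between genotypes by a test of the difference itself. The effect in RNF138-/- minus that in wild type was a log2 value of -2.465 (SE 0.63, adjusted p = 0.0169 by edgeR). The gene was higher in all 3 wild-type organoid libraries than in all 3 CAC libraries, and RNF138-/- organoids and CAC overlapped. In the organoids, where the libraries labelled RNF138-/- and wild type also differ in Y-linked transcripts, sex and genotype cannot be told apart, and wild-type organoids and wild-type CAC tissue differ in these transcripts too.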

How the results depend on the processing

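Every library was left out once, and scaling, filter, tool and fit were changed in turn. DESeq2 used its own filter (24897 genes tested between organoids and CAC in wild type, against 18617) and the fit of all 18 libraries tested 19390, so with these 2 the genes tested changed as well as the tool or the fit. Leaving out TMM was chosen after seeing the data. Between organoids and CAC without TMM, wild type had 4 members lower and RNF138-/- had 3 higher and 8 lower (8 lower also in 1 fit of all 18 libraries), and the effect in RNF138-/- minus that in wild type had 3 lower (2 with the replicate block and 2 by DESeq2). Between CAC and colitis, wild type had 1 higher with all 18 libraries in 1 fit, RNF138-/- had 2 higher and 7 lower without TMM and 1 higher without the filter, by DESeq2 and in the fit of all libraries, and the difference of the effects had 1 lower without the filter and by DESeq2. Between genotypes, CAC had 0 lower without TMM, 2 without the filter, 3 by DESeq2 and 3 in the fit of all libraries. Organoids had 11 lower without TMM, 5 with the replicate block and 5 in the fit of all libraries. In colitis the block left the counts at 0, and the replicate numbers are not shown to mark pairs in any model. With 1 library left out, organoids against CAC had 4 to 9 higher and 2 to 5 lower in wild type, 2 to 5 higher and 4 to 6 lower in RNF138-/-, and 0 to 1 higher and 1 to 3 lower for the difference of the effects. CAC against colitis had 0 to 1 higher and 1 to 3 lower in wild type, 0 to 1 higher and 6 to 13 lower in RNF138-/-, and 0 to 2 lower for the difference of the effects, and genotypes had 0 to 2 lower in CAC and 2 to 9 lower in organoids.

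The log2 ratio of the linker means of organoids over CAC, 2.44 in wild type and 2.94 in RNF138-/-, was 0.92 and 0.85 without Hist1h1c, 2.32 in RNF138-/- without TMM, and 2.17 to 2.68 and 2.80 to 3.135 with 1 library left out. That of the core means, 0.21 and 0.31, turned in RNF138-/- to -0.30 without TMM and to -0.37 without the top gene of each core class (Hist3h2a, Hist1h2bc, Hist2h3c2 and Hist1h4i), and was -0.018 (without organoid wild-type library 1) to 0.48 in wild type and 0.14 to 0.42 in RNF138-/-. Without these 4 genes and Hist1h1c the linker to core ratio was 0.156, 0.1097, 0.155, 0.0963, 0.254 and 0.225 in colitis, CAC and organoids, wild type first in each. Among single genes in organoids against CAC of RNF138-/-, the sign turned without TMM for H1fx (-0.54), Hist1h1d (-0.20) and Pcna (-0.22), and with 1 library left out H1fx ran from -0.078 to 0.251 and Npat from -0.112 to 0.044. In wild type Hist1h2bc ran from -0.007 (without CAC library 2) to 0.673. Between genotypes, Rnf138 ran from -0.205 to 0.164 in colitis and from -0.24 to 0.003 in organoids, positive without wild-type library 3. None of these was called. The cause of these shifts was not tested. Depth limited the 30 members that entered no test.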
